A study of Equus caballus with 4 samples.

Results

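Nuclear receptors are transcription factors that sit on DNA and are switched by small fat-soluble molecules such as steroids, retinoids, thyroid hormone, oxysterols, bile acids and fatty acids. Many of them bind DNA together with a retinoid X receptor (RXR), recruit corepressors when no ligand is bound and exchange these for coactivators when it is. In muscle they are known for setting fuel use and, during differentiation, for tuning the myogenic programme. The set described here was 43 named receptors, all outside the NR4A subfamily. Its members were the gene probes of the horse array whose gene name was exactly one of the 43 symbols. These were 94 of 43603 gene probes, and they covered 40 receptors among the 24998 gene names on the array.

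Transcripts were measured in equine satellite cells (muscle stem cells of the semitendinosus muscle) on day 3 of differentiation. Treated cultures received gamma-oryzanol (GO), which consists of ferulic acid esters of plant sterols found in rice bran oil, at a concentration of 0.125 µM over 24 h, with 3 mM hydrogen peroxide (H2O2) in the last 1 h. Control cultures received no GO. The study describes its control medium as holding the DMSO vehicle and its control cells as exposed to H2O2, which the labels do not state. The muscle came from young stallions, and the study chose a single best primary cell line, so the cultures may share 1 animal. Treated RNA was labelled red (Cy5) and control RNA green (Cy3) on 4 arrays of 1 slide. No array had the dyes swapped, so dye and treatment cannot be told apart. The labels of all 4 arrays name control replicate 1, while the design counts 4 control replicates. It is therefore unsettled how many control cultures stand behind the 4 ratios, and the p-values measure the spread between these arrays, which may be technical.

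All values are log2 ratios of red over green on 1 array, so a positive value is a higher signal with GO and H2O2. Errors are SDs over the 4 arrays, whose number limits the precision. A probe was tested when it carried Agilent's mark for well above background on all 4 arrays in red or on all 4 in green. A difference passed when its limma p-value, adjusted over the 24228 probes tested, was under 0.05. Probe positions are those of the files, in the build EquCab1, and exons and UTRs were not assigned. In RNA from whole cultures, fewer cells of a type and less RNA per cell cannot be told apart.

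Each signal comes from a probe of 60 bases. The probes of both liver X receptors, of PPARA and of RXRB are shown because the question of sterol and lipid sensors turned on single probes for these receptors. Their EquCab1 positions were chrUn:234959640-234961561 on the plus strand for NR1H2, chr12:9054790-9054849 on the plus strand for NR1H3, chr28:42000239-42000298 on the plus strand for PPARA and chr20:27069326-27069385 on the minus strand for RXRB. The match of the NR1H2 probe spanned 1922 bases of unplaced sequence, more than its 60 bases. They read, 5′ to 3′:
NR1H2: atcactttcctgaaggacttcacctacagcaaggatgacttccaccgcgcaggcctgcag
NR1H3: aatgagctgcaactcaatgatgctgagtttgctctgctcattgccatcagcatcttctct
PPARA: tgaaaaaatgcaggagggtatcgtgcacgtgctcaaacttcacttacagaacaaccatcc
RXRB: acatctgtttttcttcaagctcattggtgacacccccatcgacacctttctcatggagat

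Other receptors were covered by probes that are copies of each other moved by single bases. Of the 4 NR2F2 probes, 3 lay at chr1:99292030-99292091 on the plus strand, and they are shown because 1 of them passed the threshold while the others did not. They share 58 bases, and the capitals mark the end bases that not all 3 share:
NR2F2 P097148: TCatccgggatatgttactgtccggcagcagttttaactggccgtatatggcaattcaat
NR2F2 P097147: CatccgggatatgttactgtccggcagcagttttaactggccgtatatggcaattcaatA
NR2F2 P097146: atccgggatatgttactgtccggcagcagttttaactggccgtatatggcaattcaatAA
The 5 RARG probes on chromosome 6 share 56 bases. The stretch at chr6:70278279-70278308 on the minus strand is common to all 5 and is shown because it holds the letters AATAAA (in capitals), the hexamer found near the end of many transcripts:
RARG shared: tttctatttttgcaaAATAAAgtgatagaa
These letters were present in 8.64% of all gene probes as printed, in 11.9% on either strand, and in 13 of the 94 receptor probes as printed. Since such probes read almost the same bases, they are read below as repeats of 1 measurement and not as separate evidence. Counts of probes still include each of them.

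Which receptors gave a signal was asked first. Of the 40 receptors with a probe, 16 had at least 1 probe that met the detection rule. These were the liver X receptors NR1H2 and NR1H3, the retinoid X receptors RXRA and RXRB, the retinoic acid receptors RARB and RARG, the thyroid hormone receptor THRA, the fatty acid receptor PPARA, the glucocorticoid receptor NR3C1 and the mineralocorticoid receptor NR3C2. The others were the clock repressor NR1D2, the orphan receptors NR2C1, NR2C2, NR2F2 and NR5A2, and the oestrogen-related receptor ESRRA, a regulator of mitochondrial genes. By probes, 39 of 94 were tested (41.5%, against 55.6% of all gene probes), and 37 were well above background in both channels on all 4 arrays (39.4% against 52.5%).

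No array showed a signal well above background in either channel for 19 receptors. Among the lipid and sterol sensors these were the bile acid receptor NR1H4, PPARD, the adipogenic receptor PPARG and HNF4G. The retinoid X receptor RXRG, the retinoic acid receptor RARA, the vitamin D receptor VDR, the progesterone receptor PGR, the xenobiotic receptors NR1I2 and NR1I3 and the clock activators RORA and RORB were also without one. So were the oestrogen-related receptors ESRRB and ESRRG, the orphan receptors NR2E1, NR2E3 and NR6A1, and NR0B1 and NR0B2, which lack a DNA-binding domain. For these receptors the arrays give no ratio that can be read, and a low transcript level cannot be told apart from a weak probe.

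In 5 receptors the signal passed the background on some arrays only. NR5A1 did so on 3 arrays in each channel, THRB on 1 in red and 2 in green, ESR1 on 1 in each, and ESR2 and HNF4A on 1 in green. Another 3 receptors (NR1D1, NR2F1 and NR2F6) had no probe under their symbol. By the probe descriptions, 1 probe for NR1D1 was found, with a log2 ratio of 0.08 ± 0.08 (SD, n = 4; adjusted p = 0.259). For NR2F1, 1 of 2 described probes was tested and gave 0.03 ± 0.15 (adjusted p = 0.711), and none was found for NR2F6.

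**Figure D1:**
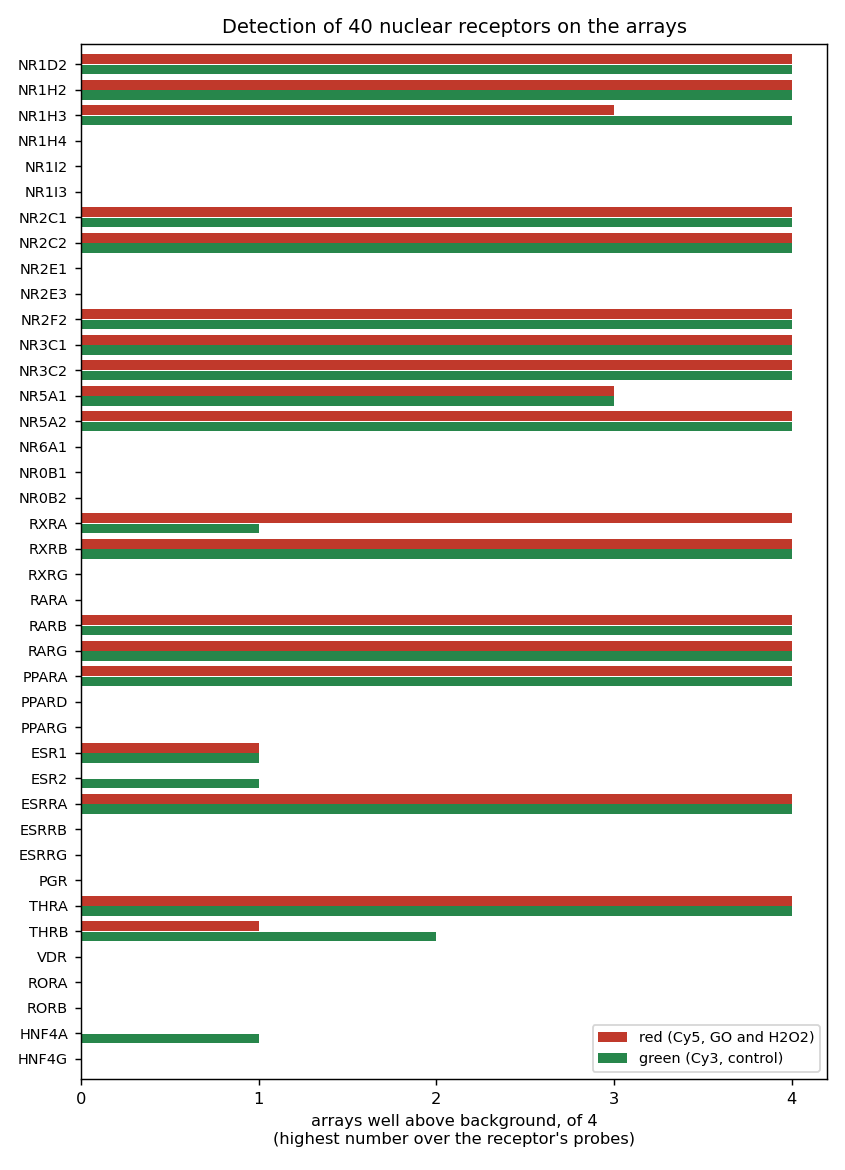
Number of arrays (x axis, of 4) on which each of 40 nuclear receptors (y axis) was well above background, in red (GO and H2O2) and green (control), taking the highest number over a receptor's probes. For 19 receptors both bars are at 0, and RXRA has 4 arrays in red and 1 in green.

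The cells carried the markers of differentiating muscle. Of 12 skeletal muscle markers 11 had a probe and all 11 were tested (the satellite cell factor PAX7 had none). None of 4 adipocyte or 4 endothelial markers with a probe was tested. LEP (leptin) was above background on 1 array in each channel, while the other adipocyte markers with a probe (ADIPOQ, FABP4 and CIDEC) and all 4 endothelial markers were not above background on any. Among leukocyte markers CD68 was tested of 3 with a probe, and among fibroblast markers 3 of 4. The muscle markers differed between red and green: 7 of the 11, MYOG and the fibre genes ACTC1, MYL1 and TNNT3 among them, were higher and none was lower. Of all gene names, 17.1% passed in either direction at their brightest probe. Summed over the muscle markers, the linear signal was 367697 to 424028 in red and 297854 to 331154 in green. The marker calls were not read under the alternative processings. Fibroblast markers went both ways, with THY1 higher and LUM lower, and a summed signal of 44499 to 56090 in red and 48425 to 61006 in green. The part of these markers in the receptor results was not tested.

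The second question was which receptors differed between treated and control cells. The differences that passed were under 1.3-fold with the reported processing, and they were upward for retinoic acid receptors, the liver X receptor NR1H2, NR3C2 and a probe of NR2F2, and downward for NR5A2. Of the 39 tested probes 10 passed (8 higher, 2 lower), or 25.6%, and these belonged to 6 receptors. Each shifted copy counts in this share, and 4 of the 10 were RARG probes, so it is not a share of separate measurements. Among all probes tested 17.1% passed, 9.49% higher and 7.59% lower. Without adjustment 15 of the 39 had a p-value under 0.05. With 1 probe for each receptor, the one of highest mean signal, 5 of 16 passed (RARB, RARG, NR1H2 and NR3C2 higher, NR5A2 lower), against 17.1% of the 13691 gene names tested. No receptor probe passed with a fold change of at least 1.3 (0 of 39, against 1.42% of all probes). That is the limit in the study's methods, while its gene list, which holds NR2F2, used a lower one. The count of receptor probes at 1.3-fold depended on the processing. It was 4 with Agilent's processed signals (both RARB probes, RARG P053420 and NR5A2 P000877) and 1 with normexp at offset 0 (RARB P117722). The median log2 ratio of the receptor probes was 0.03, beside 0.003 for all probes tested.

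**Figure D2:**
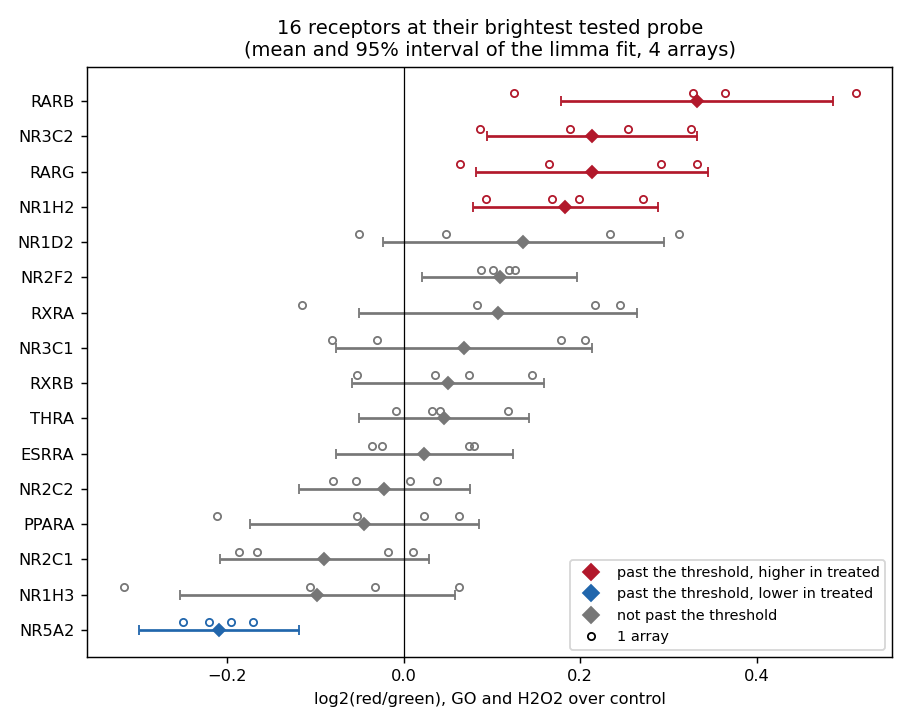
The log2 ratio of red over green (x axis) for 16 receptors at their brightest tested probe (y axis), with each array as an open circle and the mean with its 95% interval from limma as a diamond. RARB, NR3C2, RARG and NR1H2 lie above 0 on all 4 arrays, and NR5A2 lies below 0 on all 4.

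RARB gave the highest mean ratio of the 16 receptors at their brightest probes, and RARG rose too. Retinoic acid receptors are ligand-switched partners of RXR that read all-trans retinoic acid. The RARB probe P117722 (chr16:57475645-57475704, minus strand) had log2 ratios of 0.36, 0.51, 0.12 and 0.33 on the arrays of replicates 1 to 4. Every array was above 0, with replicate 2 the highest and replicate 3 the lowest, and the normalised log2 signals of red (7.52 to 7.90) and green (7.32 to 7.40) did not overlap. The mean was 0.33 ± 0.16, a 1.26-fold higher signal (95% interval 0.18 to 0.49 on the log2 scale, adjusted p = 0.0252). With Agilent's processed signals it was 0.63. The neighbouring RARB probe P117721 (chr16:57475585-57475644) gave 0.27, 0.47, 0.07 and 0.10 and a mean of 0.23 ± 0.19, which did not pass (adjusted p = 0.0718) but did in the deposited processed ratio (0.47, adjusted p = 0.0442). The third RARB probe was above background on 1 array in red and on none in green, and was not tested.

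RARG passed with 4 of its 5 shifted probes (chr6:70278275-70278338, minus strand), whose shared stretch is printed above. The brightest, P053417, had log2 ratios of 0.17, 0.06, 0.29 and 0.33, all above 0, with replicate 2 lowest. Its mean was 0.21 ± 0.12, or 1.16-fold (95% interval 0.08 to 0.34, adjusted p = 0.0440). The call of this probe was lost in the deposited processed ratio (0.30, adjusted p = 0.0634) and under normexp at offset 0 (0.26, adjusted p = 0.0560), while P053420 passed under both (0.41 and 0.34). Its red signals (8.12 to 8.36) overlapped the green ones (7.90 to 8.20). The means of all 5 ran from 0.16 to 0.28 with adjusted p-values from 0.0205 to 0.0579. Although the probes are shifted by single bases, their means differed by up to 0.12. RARA, the third retinoic acid receptor, gave no signal well above background.

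THRA, the thyroid hormone receptor that was detected, had ratios of -0.01, 0.04, 0.03 and 0.12. Its mean of 0.05 ± 0.05 did not pass (95% interval -0.05 to 0.14, adjusted p = 0.447). The retinoid X receptors, the shared partners of these receptors, did not pass either. For RXRB the ratios were -0.05, 0.07, 0.15 and 0.04, on both sides of 0, and the mean was 0.05 ± 0.08 (95% interval -0.06 to 0.16, adjusted p = 0.458).

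RXRA entered the test through the red channel alone. Its tested probe (chr25:2228635-2228694, minus strand) was above background on 4 arrays in red and 1 in green, with ratios of -0.12, 0.08, 0.22 and 0.25. The mean was 0.11 ± 0.16 (adjusted p = 0.280). With Agilent's processed signals it was 0.59 and did not pass (adjusted p = 0.0917). The other 4 RXRA probes, shifted by single bases, were not tested. Their mean ratios were 0.31, 0.25, 0.17 and 0.11, from signals that did not meet the detection rule.

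The liver X receptors bind oxysterols and switch on cholesterol efflux and fatty acid synthesis. The NR1H2 probe had log2 ratios of 0.20, 0.17, 0.09 and 0.27, all above 0, with replicate 3 lowest. The mean was 0.18 ± 0.07, a 1.14-fold higher signal (95% interval 0.08 to 0.29, adjusted p = 0.0384). This call was lost when any 1 replicate was left out (0.15 to 0.21, adjusted p-values from 0.0591 to 0.135). Red signals of 8.18 to 8.31 overlapped the green ones of 7.98 to 8.21. NR1H3 gave -0.11, 0.06, -0.03 and -0.32, on both sides of 0, with replicate 4 lowest and the red signal above background on 3 of 4 arrays. Its mean of -0.10 ± 0.16 did not pass (95% interval -0.25 to 0.06, adjusted p = 0.315). The difference between both liver X receptors was not tested, since each rests on a single probe. PPARA, the receptor that drives fatty acid oxidation, had ratios of 0.06, -0.21, 0.02 and -0.05. Its mean was -0.04 ± 0.12 (95% interval -0.17 to 0.09, adjusted p = 0.583), within the spread between arrays.

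The steroid receptors that were detected were those of corticosteroids. NR3C2, the mineralocorticoid receptor, had ratios of 0.19, 0.09, 0.33 and 0.25 at the probe P119056 (chr2:70414371-70414430, plus strand). All 4 arrays were above 0, while the lowest red signal (7.71) lay just under the highest green one (7.74). The mean was 0.21 ± 0.10, or 1.16-fold (95% interval 0.09 to 0.33, adjusted p = 0.0361). With Agilent's processed signals it was 0.27 and did not pass (adjusted p = 0.0884). The second NR3C2 probe was not tested. NR3C1, the glucocorticoid receptor, had 3 tested probes with means from -0.01 to 0.07 and adjusted p-values from 0.448 to 0.935. All of them were below 0 on replicates 1 and 2 and above 0 on replicates 3 and 4.

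NR5A2, an orphan receptor known from the liver for bile acid synthesis, was the receptor that fell with the reported processing. Its 2 probes lie next to each other without overlap (chr30:17610882-17610941 and chr30:17610942-17611001, plus strand). The brighter, P000876, had ratios of -0.20, -0.22, -0.17 and -0.25, and the other, P000877, had -0.20, -0.31, -0.22 and -0.24. All 8 values were below 0 and lay close together, and neither probe's red signals (7.83 to 7.90 and 7.35 to 7.50) overlapped its green ones (means 8.08 and 7.66). The means were -0.21 ± 0.03 (95% interval -0.30 to -0.12, adjusted p = 0.0224) and -0.24 ± 0.05 (95% interval -0.34 to -0.15, adjusted p = 0.0192). With Agilent's processed signals they were -0.30 and -0.44.

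NR2F2 (COUP-TFII), a repressor that guides cell fate in mesoderm, was picked by the study on these arrays for measurement by RT-qPCR. Its direction here is therefore not independent of that choice. By RT-qPCR the study reported NR2F2 higher with GO, by a far larger fold change than on the arrays. The brightest of the 4 NR2F2 probes, P097141 (chr1:99293207-99293266, plus strand), had ratios of 0.12, 0.13, 0.09 and 0.10. They were all above 0 and differed little, and the mean of 0.11 ± 0.02 did not pass (95% interval 0.02 to 0.20, adjusted p = 0.0837). Among the 3 shifted probes printed above, P097146 passed with 0.22, 0.25, 0.10 and 0.20 (mean 0.19 ± 0.07, adjusted p = 0.0326). Its neighbours had means of 0.12 and adjusted p-values of 0.0932 and 0.152. All 4 means were above 0, and the call rested on which of the overlapping probes was read. It was lost with Agilent's processed signals (0.21, adjusted p = 0.0565) and when any 1 replicate was left out (0.17 to 0.22).

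The other tested receptors did not pass at any probe with the reported processing. NR1D2 (REV-ERB beta), a repressor of the circadian clock, had 4 probes with means from -0.09 to 0.15 and adjusted p-values from 0.140 to 0.690, so its probes differed in direction. The testicular receptors NR2C1 and NR2C2 lay below 0 at all of their 2 and 5 probes, with means from -0.13 to -0.09 for NR2C1 (adjusted p-values 0.0681 and 0.233) and from -0.05 to -0.01 for NR2C2 (0.442 to 0.924). With Agilent's processed signals the NR2C1 probe P020691 passed, with a ratio of -0.19 (adjusted p = 0.0474). ESRRA had 5 shifted probes between -0.02 and 0.03 (adjusted p-values 0.597 to 0.995). The 95% interval of its brightest probe ran from -0.08 to 0.12, which leaves out a fold change of 1.3 either way. So did the intervals of all other receptors that did not pass at their brightest probe. These intervals measure only the spread between the arrays.

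**Figure D3:**
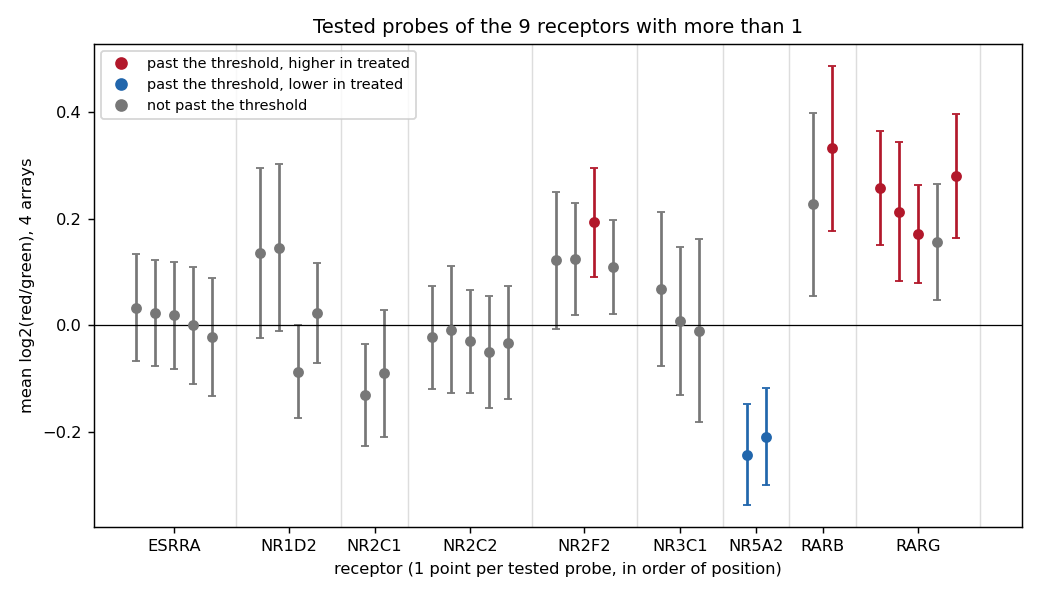
Mean log2 ratio over 4 arrays with its 95% interval from limma (y axis) for every tested probe of the 9 receptors that have more than 1 (x axis, in order of position). RARG and RARB probes all lie above 0 and both NR5A2 probes below it, while NR1D2 probes lie on both sides.

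The genes that work with the receptors were read from 9 fixed lists of 89 genes, of which 74 had a probe and 50 were tested. At the brightest tested probe 4 were higher and 3 were lower, or 7 of 50, beside the 17.1% of all gene names. The retinoid list held the receptors' carriers and enzymes. Of its 12 genes 10 had a probe and only 4 were tested, and 2 of these 4 rose. At their brightest probe 3 genes of the list were above background on no array. DHRS3, a retinaldehyde reductase that retinoic acid induces, had ratios of 0.56, 0.84, 0.36 and 0.22 (mean 0.49 ± 0.27, 1.41-fold, adjusted p = 0.0262). CRABP2, which carries retinoic acid to its receptors, had 0.40, 0.19, 0.34 and 0.41 (mean 0.33 ± 0.10, 1.26-fold, adjusted p = 0.0169). All arrays were above 0 for both. ALDH1A3, which makes retinoic acid, had a mean of 0.06 and did not pass.

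None of the 4 tested liver X receptor targets was higher. All of them (MYLIP, LPCAT3, SCD and FASN) had a mean below 0, and SCD, which desaturates fatty acids, passed with -0.12, -0.25, -0.10 and -0.23 (mean -0.17 ± 0.08, adjusted p = 0.0441). ABCA1 and SREBF1 had a probe and were not tested, while ABCG1, APOE and SMPDL3A had none under their symbols. Of 8 tested PPAR targets 1 passed. This was ACADM, an enzyme of fatty acid oxidation, which was lower (-0.17, -0.23, -0.09 and -0.18, mean -0.16 ± 0.06, adjusted p = 0.0416). CPT1A and PLIN2 had means of -0.03 and 0.13 and did not pass.

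Among the chaperones that hold steroid receptors ready for hormone, 2 of 7 tested genes passed. HSP90AA1 was lower on all arrays (-0.30, -0.27, -0.25 and -0.31, mean -0.28 ± 0.03, adjusted p = 0.0153). FKBP5, a co-chaperone that glucocorticoids induce, was higher on all arrays (0.65, 0.14, 0.35 and 0.30, mean 0.36 ± 0.22, adjusted p = 0.0335). No gene passed among 7 tested glucocorticoid receptor targets (means from -0.16 for TSC22D3 to 0.08 for SGK1), 5 corepressors or 3 enzymes of oxysterol, steroid and thyroid hormone handling. Of 12 tested coactivators PRMT1, an arginine methyltransferase, was higher (0.63, 0.34, 0.35 and 0.28, mean 0.40 ± 0.16, 1.32-fold, adjusted p = 0.0186).

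**Figure D4:**
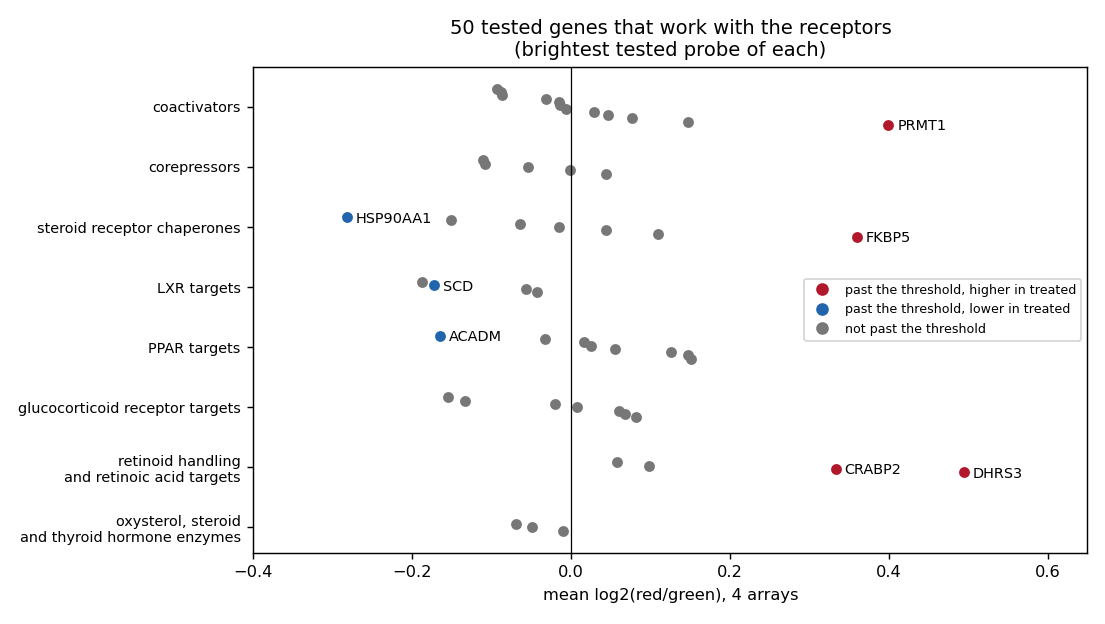
Mean log2 ratio over 4 arrays (x axis) of 50 tested coregulator, chaperone, target and ligand-handling genes, 1 point per gene at its brightest tested probe, in 8 lists (y axis). The 7 genes past the threshold are named, with DHRS3 and CRABP2 the highest of the retinoid list.

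The calls changed with the arrays used and with the normalisation. Leaving out replicate 2 gave 8 receptor probes past the threshold, 7 of them among the 10 reported and the other a RARG probe, whereas leaving out replicate 1, 3 or 4 gave 0, although 13 to 15 of the 39 were then still under 0.05 by limma before adjustment. When the arrays were only centred on their medians, 0 receptor probes passed and 3 were under 0.05 before adjustment. The mean ratios of the 10 probes that passed kept their sign under each of these changes. Leaving out an array could not have changed it, since each of the 10 had the same sign on all 4 arrays.

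**Figure D5:**
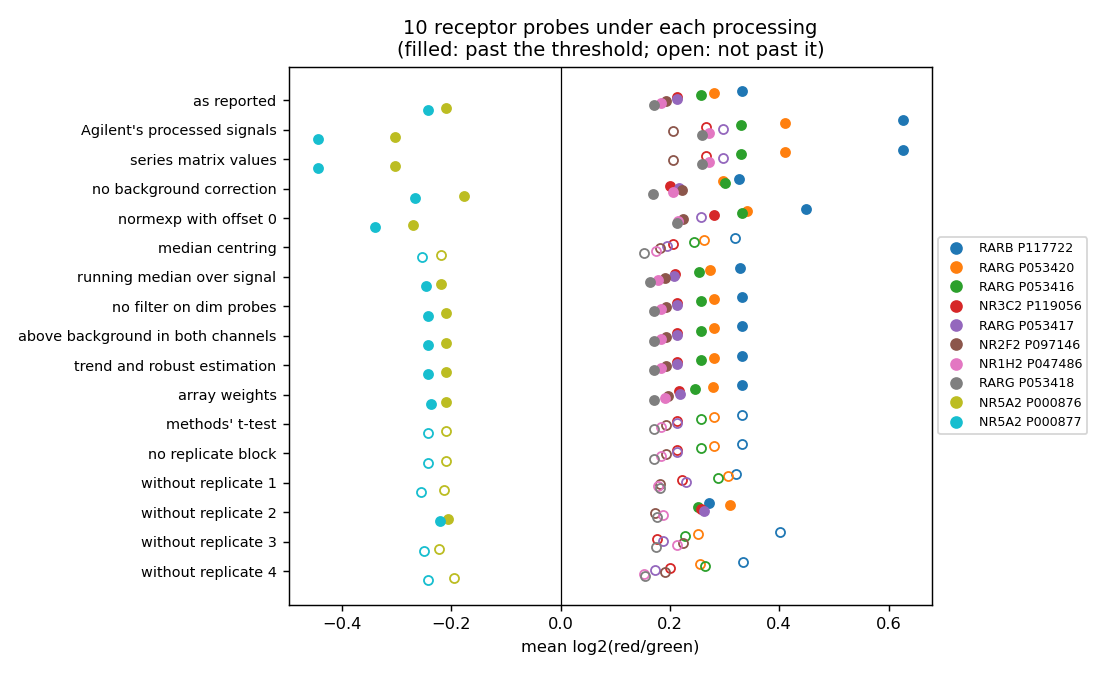
Mean log2 ratio (x axis) of the 10 receptor probes that passed, under the reported processing and each alternative (y axis), with filled points past the threshold and open points not. The signs stay the same in every row, which was fixed beforehand for rows that leave out an array or reuse the same mean ratios. No point is filled for median centring, the methods' t-test, the unpaired fit and without replicates 1, 3 or 4.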

How the data were processed

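The authors scanned 4 two-colour arrays and extracted spot intensities with Agilent Feature Extraction 10.10.1.1, per the file headers. The deposited mean and background median intensities were used. The deposited log10 ratio, also held by the authors' series matrix, is that of background-subtracted and dye-normalised signals and served as an alternative. Intensities were corrected with normexp (offset 50) and normalised by loess within each array (control spots at weight 0). Outlier spots (7 to 16 per array) were dropped and spots of a probe averaged. Between 56.7% and 61.4% of gene probes were well above background in red and 54.9% to 61.3% in green, and no gene spot was saturated. The mean log2 ratio was tested against 0 with limma 3.58.1 (R 4.3.3, two-sided, Benjamini-Hochberg over 24228 probes), after the code was tested on simulated data. The array pairs treated and control RNA. Treated and control samples had no other pairing.

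Symbols were those of the array, and all 43 of 43 are in a horse RefSeq gene table. Members and lists were chosen with earlier results of these data known. Values on each array are given for receptors with a passing probe, tested sterol and fatty acid receptors, RXRs and NR2F2. THRA was added after its values were seen. Of each partner list, at most 3 passing genes were named with values on each array, and those that did not pass were named after their values were seen. Alternatives were other signals, background corrections, normalisations, filters, variance estimates and probe summaries, Student's test from the study's methods (the methods' t-test), an unpaired fit and leaving out each array. Some genes of the partner lists are not reported here by name.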

Additional observations from a re-analysis of the deposited data

How the results depend on the processing

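The receptor results kept their direction more often than their calls, which was in part fixed beforehand. The methods' t-test, the unpaired fit and changes of filter reuse the same mean ratios, so no sign could change there. The number of receptor probes past the threshold was 0 with median centring, 0 with the methods' t-test (15 unadjusted) and 0 in a fit with no replicate block, which ignores the pairing of red and green on an array (smallest adjusted p = 0.0505). It was 0 to 8 when 1 replicate was left out and 9 to 13 under the other alternatives, beside 10 as reported. Of the 10 that passed with each of the deposited ratios, 7 were among the reported 10. Those of NR2F2 and NR3C2 and 1 of RARG dropped out, and 1 each of RARB, RARG and NR2C1 entered. Receptors past the threshold at their brightest probe numbered 3 from the series matrix values and 3 from Agilent's own processed signals, 0 with median centring, 0 with the methods' t-test, 0 with no replicate block and 0 to 4 when 1 replicate was left out, beside 5. The count with a fold change of 1.3 was 4 from each of these deposited ratios and 1 with normexp at offset 0, beside 0. Partner genes past the threshold numbered 0 with median centring, 0 with the methods' t-test, 1 with no replicate block and 0 to 6 when 1 replicate was left out, beside 7. The cause of these losses was not tested. Among all probes 12 passed with median centring, 5 with the methods' t-test, 594 with no replicate block, and 2, 3897, 38 and 0 without replicates 1 to 4, beside 4137.

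Of 270 alternative values of the 16 receptors at their brightest probe, 36 lost the call, none gained one and none reversed a call. RXRB, PPARA and THRA, which did not pass, kept their sign in 15 of 17 alternatives each. RARB and NR5A2 passed in 11 of 17, NR1H2 in 10, NR3C2 in 9 and RARG in 8. Agilent's processed signals and the series matrix values hold the same ratios but count as separate alternatives here. The median log2 ratio of receptor probes stayed above 0 throughout, from 0.001 with no filter on dim probes to 0.06 without replicate 1. No scaling moved the median of all probes by more than 0.011. Without the filter 13 of 94 receptor probes passed, beside 12.2% of all 43603 gene probes. Among the 13 were probes of RXRA and of NR0B2, which was above background on no array.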
